A study of Mus musculus with 6 samples.

Results

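Transcripts of 9 genes of the red cell surface and of red cell carbon dioxide handling were followed in mouse marrow progenitors, namely Rhd, Rhag, Kel, Ermap, Icam4, Slc4a1, Cldn13, Car1 and Car2. They were chosen by symbol for their place in the erythroid membrane and cytoplasm, and Rhd and Cldn13 had been noticed to be lower under the Hmga2 label before the choice was made. The contrast between the labels therefore chose at least these 2 genes, so it is described for the 9 members and not tested. All 9 were found among the 48395 symbols of the count tables, and all 9 were among the 16739 genes that passed the count filter. The libraries came from sorted LSK cells, a marrow fraction low in lineage markers that carries Sca-1 and c-Kit and holds stem cells and early progenitors.

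The groups were 3 libraries labelled Hmga2 and 3 labelled vector, described by the labels as biological replicates. Both carried the same Mx1Cre; Jak2V617F/+ genotype, in which Cre under the interferon-inducible Mx1 promoter switches on an activating Jak2 allele. For both, marrow of donors primed with 5-fluorouracil was transduced with lentivirus (Hmga2 or vector alone) and transplanted into lethally irradiated C57BL/6 mice, whose marrow was collected 32 weeks later. No label states the age of the mice, the share of transduced cells or how many host cells remained. The comparison addressed what the Hmga2 virus changed in Jak2-mutant progenitors, Hmga2 being an architectural chromatin protein. In CPM, counts scaled to a common library size, Hmga2 itself stood at 2.64, 6.62 and 5.92 in the 3 Hmga2-labelled libraries, against 5.97, 5.02 and 7.04 CPM in the vector libraries. Its log2 fold change was -0.25 with a standard error of 0.35 (adjusted p = 0.934, edgeR). Whether reads of the viral Hmga2 would be counted for this gene is not stated, so the value does not show the level of the transgene, and the groups are named by their labels.

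Red cells carry carbon dioxide from tissue to lung by turning it into bicarbonate. Carbonic anhydrases in the cytoplasm make this reaction fast, and band 3, the product of Slc4a1, exchanges the bicarbonate for chloride across the membrane. Band 3 also anchors a complex of surface proteins to the spectrin skeleton beneath, among them the Rh proteins. In humans the counterparts of Rhd, Kel, Ermap, Icam4 and Slc4a1 carry the antigens of the Rh, Kell, Scianna, Landsteiner-Wiener and Diego blood groups. Carbonic anhydrase transcripts appear early in the erythroid lineage, whereas band 3 and globin accumulate as the cells mature. An LSK gate is meant to leave out committed erythroid cells.

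RefSeq promoter sequences on GRCm38.p6, the same assembly as mm10, were given for 5 of the 9 members. They are shown because erythroid genes are known to be bound by Gata1 and Klf1. Whether the letters bear on the levels across libraries was not tested. For Rhd, Rhag, Kel and Ermap the 100 bases before the GENCODE gene start are shown, 5′ to 3′ on the gene's strand. For Icam4 the letters lie inside an annotated exon, and only 30 bases around them are shown. Capitals mark a GATA hexamer or the letters CACCC, on either strand, so that a match on the opposite strand shows its reverse complement, such as GGGTG.
Rhd (chr4:134864436-134864535, plus strand): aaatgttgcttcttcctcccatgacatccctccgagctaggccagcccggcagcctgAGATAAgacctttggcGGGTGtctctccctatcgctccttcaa
Rhag (chr17:40811026-40811125, plus strand): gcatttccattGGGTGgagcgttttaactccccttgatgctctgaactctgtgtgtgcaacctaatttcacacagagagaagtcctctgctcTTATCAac
Kel (chr6:41704340-41704439, minus strand): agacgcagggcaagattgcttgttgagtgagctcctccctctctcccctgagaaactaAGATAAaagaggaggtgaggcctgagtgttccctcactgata
Ermap (chr4:119190012-119190111, minus strand): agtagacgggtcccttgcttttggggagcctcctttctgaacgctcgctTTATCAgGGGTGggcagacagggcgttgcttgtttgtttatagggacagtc
Icam4 (chr9:21029377-21029406, plus strand): caGGGTGccttcTTATCTcctgcggccagc

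A GATA hexamer was taken as AGATAA or as the variant TGATAA, and also as AGATAG or as the variant TGATAG, on either strand. One stood within the 250 bases before the RefSeq start in 5 of the 5 promoters. Among all 32851 promoters of that table, 26.5% held one in the same window. The hexamer nearest the start began 43 bases upstream in Rhd, 31 in Rhag, 19 in Kel, 67 in Ermap and 43 in Icam4. That of Icam4 lies in an annotated exon. The one at 19 bases in Kel runs across the gene start, so that its last base is cut off from the stretch shown and its other bases, tgata, end that stretch in lower case. Kel held another at 56 bases, which is printed in capitals. CACCC, the core of the letters bound by Klf1, was in 5 of 5 promoters and in 52.0% of all promoters. The CACCC of Kel lies 5 bases before the start, outside the stretch shown. Both kinds together were in 5 of 5 and in 11.8% of all promoters. CANNTG, the E-box letters bound by Tal1, was in 2 of the 5, Kel and Icam4, and in 66.2% of all promoters. The search covered both strands and none of these motifs overlapped another in the stretches shown. These matches describe letters and not binding, and Icam4 had the same letters as the others but a different course across libraries, given below.

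Total counts were 24818011 to 35471806 per library, so that 3 reads corresponded to 0.0846 to 0.121 CPM (counting error only). Every member lay far above that floor, with between 166 reads (Slc4a1 in Hmga2 replicate 2) and 18965 reads (Car1 in vector replicate 2) behind a value. Of the sort markers, Kit stood at 345 to 375 CPM in the libraries labelled Hmga2 and at 248 to 354 CPM in the vector libraries, and Ly6a, which encodes Sca-1, at 32.2 to 45.5 CPM in the libraries labelled Hmga2 and at 19.3 to 59.1 CPM in the vector libraries. The 4 T cell markers together summed to 0.423 to 1.14 CPM in the libraries labelled Hmga2 and to 0.269 to 1.42 CPM in the vector libraries. In these bulk libraries, fewer cells of a type and less RNA per cell cannot be told apart. No source states that the replicates came from separate donors, so spread between libraries may be partly technical. Y-linked genes summed to 7.59, 2.66 and 7.02 in log2 CPM in the libraries labelled Hmga2, and to 2.95, 4.48 and 2.64 in the vector libraries. The libraries of a group thus differed in Y-linked transcripts, and the highest levels were in Hmga2 replicates 1 and 3. A refit also took in the Y-linked level of each library. Log2 fold changes, labelled Hmga2 over vector, were then -1.46 for Rhd, -1.5 for Cldn13 and -1.21 for Slc4a1. In the main fit they were -1.47, -1.39 and -0.62. In both fits 8 of the 9 members were lower in the libraries labelled Hmga2. Beyond this refit, the part of the Y-linked difference in the contrast was not tested.

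Levels of different genes were compared per kilobase of merged annotated exons. On that scale the carbonic anhydrases stood apart from the surface proteins in each of the 6 libraries. Car1 ranged from 107 to 584 CPM per kilobase and Car2 from 173 to 247 CPM per kilobase over the 6 libraries. Ermap (7.40 to 30.3), Cldn13 (6.94 to 31.6), Icam4 (8.37 to 14.2), Rhd (3.99 to 22.7), Rhag (4.58 to 18.6) and Kel (3.25 to 13.5) followed, in CPM per kilobase, with ranges that overlapped each other. Slc4a1 was the lowest in 5 of the 6 libraries, at 1.10 to 4.40 CPM per kilobase, and in Hmga2 replicate 3, at 4.12, it was above Rhd (3.99) and Kel (3.25).

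Rhd (chromosome 4, positions 134864536 to 134896172 on mm10) encodes the mouse Rh polypeptide. It had 11.1, 11.3 and 6.35 CPM in the libraries labelled Hmga2, against 24.2, 36.2 and 18.9 CPM in the vector libraries. Every library labelled Hmga2 was below every vector library, and the means were 9.58 ± 2.80 CPM in the libraries labelled Hmga2 and 26.5 ± 8.87 CPM in the vector libraries (SD, n = 3 each). The fitted log2 fold change, labelled Hmga2 over vector, was -1.47 with a standard error of 0.31, a ratio of 0.362. Rhag (chromosome 17, 40811126 to 40840754) encodes the Rh-associated glycoprotein, which forms the Rh complex with it and moves ammonia or carbon dioxide. Rhag had 18.7, 13.6 and 10.7 CPM in the libraries labelled Hmga2 and 33.6, 43.4 and 15.4 CPM in the vector libraries. These groups overlapped, because vector replicate 3 was below Hmga2 replicate 1. The log2 fold change of Rhag was -1.11 with a standard error of 0.38.

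The blood group carriers Kel and Ermap stood lower in the libraries labelled Hmga2, while Icam4 did not. Kel (chromosome 6, 41686330 to 41704339) encodes a zinc endopeptidase that is linked to the Xk protein in the red cell membrane. It had 17.7, 12.0 and 9.0 CPM in the libraries labelled Hmga2, against 21.3, 37.3 and 20.01 CPM in the vector libraries, with no overlap (log2 fold change -1.02, standard error 0.33). Its partner gene Xk had 25.5, 21.8 and 23.6 CPM in the libraries labelled Hmga2 and 28.5, 23.8 and 21.4 CPM in the vector libraries, which overlapped (log2 fold change -0.06, standard error 0.14). Ermap (chromosome 4, 119175457 to 119190011), an erythroid membrane protein of the butyrophilin-like kind, had 79.3, 46.4 and 39.2 CPM in the libraries labelled Hmga2, against 106, 160 and 67.0 CPM in the vector libraries. Vector replicate 3 again lay below Hmga2 replicate 1, and the log2 fold change of Ermap was -1.01 with a standard error of 0.37. Icam4 (chromosome 9, 21029373 to 21030595) encodes an adhesion protein of the erythroid surface that binds integrins. It had 12.9, 15.8 and 9.67 CPM in the libraries labelled Hmga2 and 9.30, 11.1 and 14.4 CPM in the vector libraries. The Icam4 groups overlapped throughout, and the log2 fold change was 0.14 with a standard error of 0.24. Icam4 lies within an annotated antisense gene, Gm47079, and no source states the strand setting of the counting, so reads of the pair cannot be told apart.

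Slc4a1 (chromosome 11, 102348824 to 102366203), encoding band 3, had 8.05, 5.40 and 20.1 CPM in the libraries labelled Hmga2, against 18.0, 12.3 and 21.5 CPM in the vector libraries. The groups overlapped because Hmga2 replicate 3 was nearly as high as the highest vector library. The log2 fold change was -0.62 with a standard error of 0.48, and it was -1.36 without Hmga2 replicate 3 and -0.29 without Hmga2 replicate 2. Cldn13 (chromosome 5, 134914249 to 134915526) encodes a claudin known from mouse erythroid cells in stress erythropoiesis. It had 11.4, 9.89 and 7.40 CPM in the libraries labelled Hmga2, against 25.2, 33.7 and 16.2 CPM in the vector libraries. As for Rhd, the groups did not overlap, and the log2 fold change was -1.39 with a standard error of 0.29.

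Both carbonic anhydrase genes lie in one cluster on chromosome 3, Car1 at 14766216 to 14808368 and Car2 at 14886273 to 14900770, with Car3 between them. Car1 had 374, 196 and 133 CPM in the libraries labelled Hmga2, against 409, 729 and 308 CPM in the vector libraries. These groups overlapped, since Hmga2 replicate 1 was above vector replicate 3. The log2 fold change of Car1 was -1.04 with a standard error of 0.44. The deposited counts of Car1 were not whole numbers, and how its reads were shared with near copies is not stated, so its level is uncertain to that extent. Car2, the more active enzyme, had 474, 477 and 419 CPM in the libraries labelled Hmga2 and 597, 573 and 447 CPM in the vector libraries. The Car2 groups overlapped, Car2 varied least of the 9 members on the log2 scale, and its log2 fold change was -0.24 with a standard error of 0.13. Within a library, Car1 per Car2 ranged from 0.318 to 0.790 in the libraries labelled Hmga2 and from 0.684 to 1.27 in the vector libraries.

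**Figure D1:**
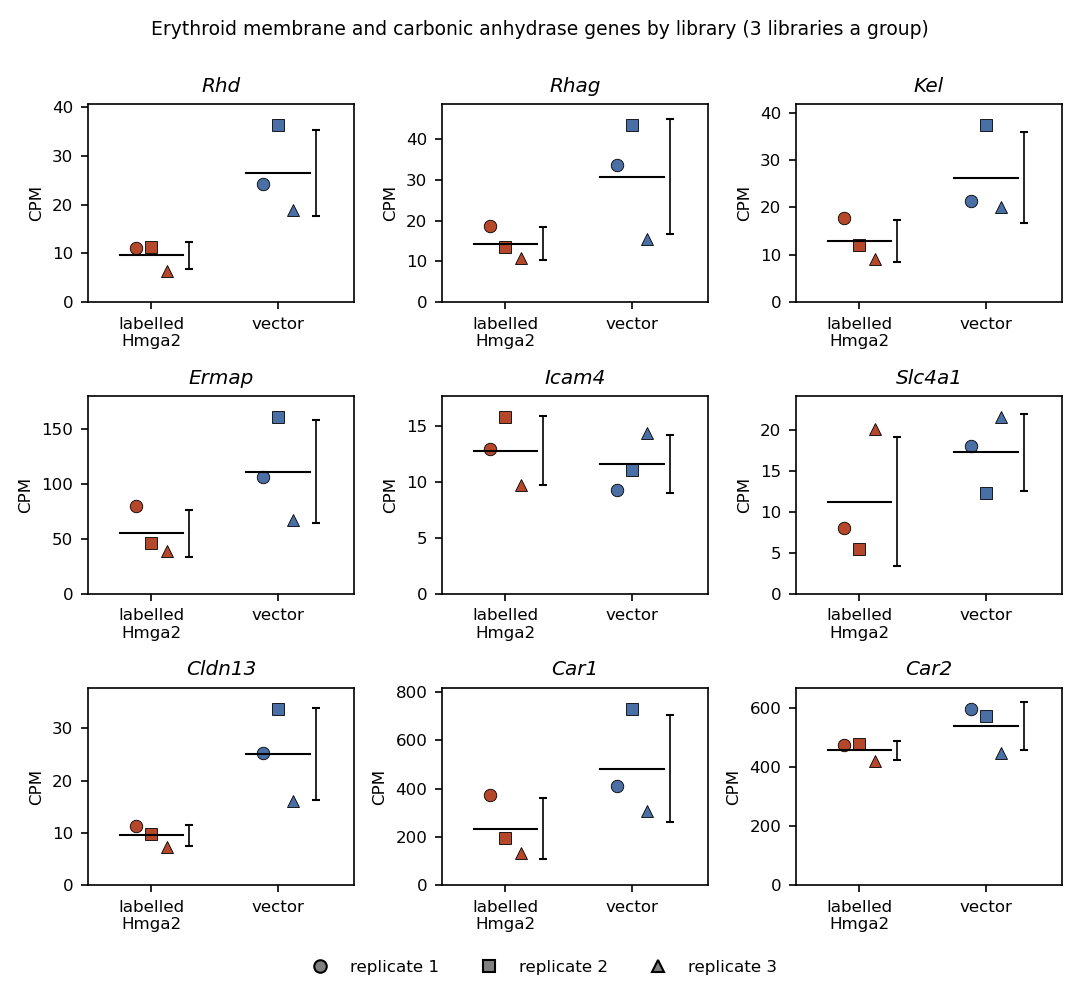
Level of each of the 9 members in CPM (vertical axes, from 0) in the 3 libraries labelled Hmga2 and the 3 vector libraries, with marker shapes for replicate numbers, horizontal lines for means and bars for 1 SD. Rhd, Cldn13 and Kel show no overlap of the groups, and the other 6 members overlap. Slc4a1 overlaps through Hmga2 replicate 3 alone, and Icam4 shows the libraries intermixed.

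Over all 9 members, 8 had a negative log2 fold change, as 49.6% of all tested genes did, and 6 were at -1 or lower, as 2.5% of all tested genes were. The groups did not overlap, with the libraries labelled Hmga2 lower, for Rhd, Cldn13 and Kel, 3 of the 9, beside 5.88% of all tested genes. That count was 6 without Hmga2 replicate 1 and 7 without vector replicate 3. Leaving out a library makes overlap rarer for any gene, and the share over all genes in those fits was not computed. The members were chosen with this contrast known, so nothing is read from these shares and counts. At an adjusted p under 0.05, edgeR called 0 of 16739 genes (0.0%). At an unadjusted p under 0.05 it had 935 genes (5.59%), of which 562 were lower in the libraries labelled Hmga2 (3.36%). DESeq2 called 71 of 16719 genes (0.425%), of which 62 were lower in the libraries labelled Hmga2 (0.371%). Without vector replicate 2, the library with the highest level of 6 members, the log2 fold changes were -1.17 for Rhd, -1.11 for Cldn13, -0.78 for Rhag, -0.68 for Kel, -0.65 for Ermap and -0.61 for Car1. Without Hmga2 replicate 1 that of Car1 was -1.55.

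**Figure D2:**
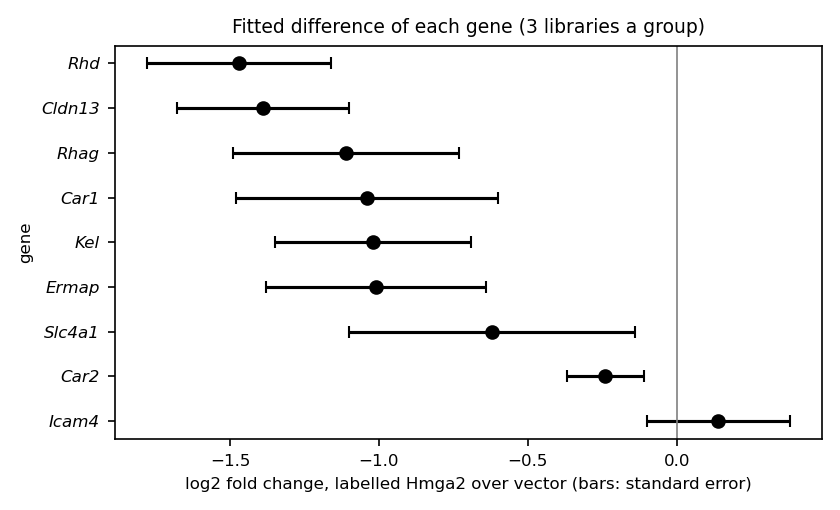
Fitted log2 fold change of each member, labelled Hmga2 over vector (horizontal axis), with bars for 1 standard error (3 libraries a group). Rhd and Cldn13 lie farthest to the left, at -1.47 and -1.39, and Icam4 lies at 0.14.

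The members fell into a larger set with similar, though not identical, orders of libraries, and Slc4a1 and Icam4, which differed from it. Of the 7 members other than Slc4a1 and Icam4, 6 were highest in vector replicate 2 and 7 were lowest in Hmga2 replicate 3. Car2 was highest in vector replicate 1, and the order of the libraries in between differed among the 7. Pearson's r of log2(CPM + 0.5) over the 6 libraries was between 0.75 and 0.98 for the 21 pairs among these 7. With the group means taken out, r was between 0.54 and 0.98 for the same pairs, so they also varied together inside the groups. Among the 15 pairs that involve Slc4a1 or Icam4, r was between -0.59 and 0.21, and with the group means taken out between -0.90 and 0.25. These correlations rest on 6 points that share library and depth, they are descriptions, and the 7 were set apart after the values were seen.

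Slc4a1 followed the globin genes more nearly than the Rh genes. Hbb-bs, an adult beta globin gene, had 86.7, 120 and 469 CPM in the libraries labelled Hmga2 and 139, 154 and 305 CPM in the vector libraries. Hba-a1, an alpha globin gene, had 59.4, 98.7 and 363 CPM in the libraries labelled Hmga2 and 115, 103 and 240 CPM in the vector libraries. Alas2, the erythroid enzyme that starts haem synthesis, had 5.46, 4.3 and 24.03 CPM in the libraries labelled Hmga2 and 6.35, 8.13 and 12.8 CPM in the vector libraries. Hmga2 replicate 3 and vector replicate 3 were thus the highest libraries for these genes, as they were 2 of the 3 highest for Slc4a1. Pearson's r with Slc4a1 over the 6 libraries was 0.75 for Hbb-bs, 0.74 for Hba-a1 and 0.78 for Alas2, against 0.06 for Rhag. These genes were picked for the comparison and not found by ranking all genes against Slc4a1. With 6 points, the values of r are descriptions only. Slc4a1 per Rhag within a library was 0.432, 0.398 and 1.88 in the libraries labelled Hmga2 and 0.535, 0.283 and 1.39 in the vector libraries. Hmga2 replicate 3 was thus the lowest library for Rhd, Rhag, Kel, Ermap, Cldn13, Car1 and Car2 and the highest for both globin genes.

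**Figure D3:**
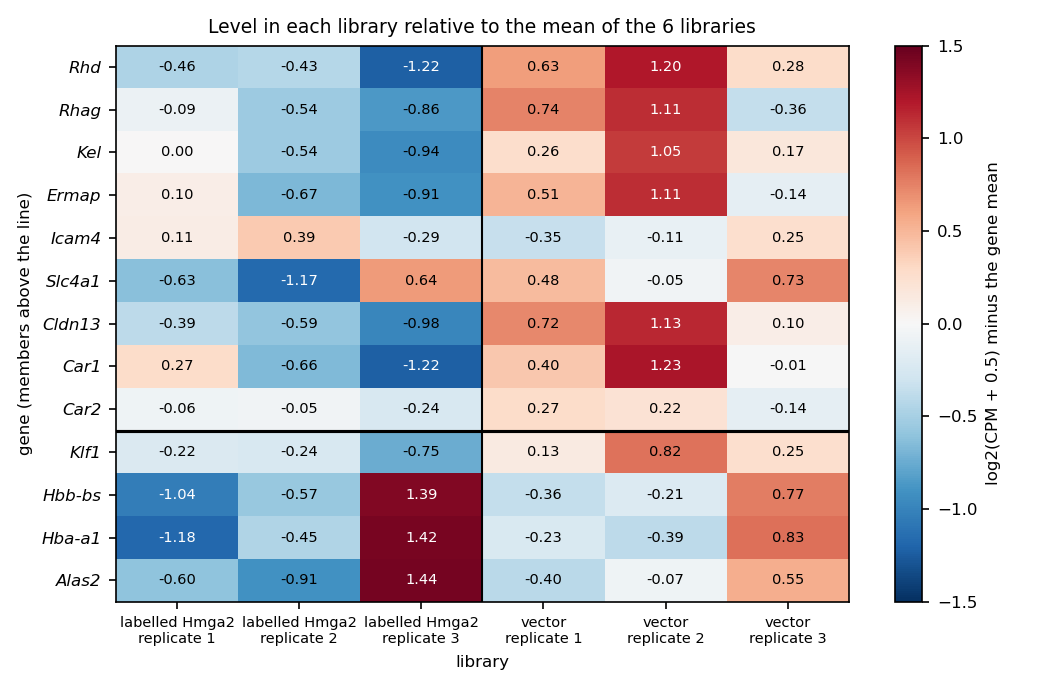
Level of the 9 members (above the line) and of 4 other erythroid genes (below it) in each library, as log2(CPM + 0.5) minus the gene's mean over the 6 libraries (colour and printed value). Hmga2 replicate 3 is at -1.22 for Rhd and Car1 but at 1.39 for Hbb-bs, and vector replicate 2 is at 1.20 for Rhd and -0.21 for Hbb-bs.

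The genes with the course most like Rhd, among 10200 named genes with a mean of at least 5 CPM, were Blvrb, encoding biliverdin reductase B, Cldn13 and Fam132a, which encodes the secreted protein adipolin (r = 0.99, 0.98 and 0.98 over the 6 libraries). For Cldn13 they were Abcg4, Add2 and Slc38a5, each with r = 0.99. Add2 encodes beta adducin of the red cell skeleton and had 16.1, 15.3 and 10.3 CPM in the libraries labelled Hmga2 and 30.6, 42.1 and 18.8 CPM in the vector libraries. For Car2, the member with the highest mean CPM, they were Aplp2, Aldoc and Kctd6 (r = 0.99, 0.97 and 0.97). With 6 points and this many genes compared, these likenesses are descriptions only.

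Other genes of the membrane skeleton and of the band 3 complex had a median below 0 that rested on vector replicate 2. Of 18 genes listed besides the members, 12 were below 0 and 6 above 0 in log2 fold change (median -0.39, against 0.0 over all tested genes). In edgeR 0 of the 18 passed over all genes, 6 were lower at an unadjusted p under 0.05, and DESeq2 called Add2. Dmtn, encoding the actin-bundling protein dematin, had a log2 fold change of -0.99 (adjusted p = 0.855, edgeR). Add2 had a log2 fold change of -1.13 (adjusted p = 0.855 in edgeR and adjusted p = 0.0317 in DESeq2). Epb41, whose product joins spectrin to actin, averaged 168 ± 8.96 CPM in the libraries labelled Hmga2 and 166 ± 18.7 CPM in the vector libraries (SD, n = 3 each). Without vector replicate 2 the median of the list was -0.06, with 10 of 18 negative.

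The other blood group genes and the families of the members showed no such median. Of 26 tested blood group carriers and enzymes, 15 were negative and 11 positive, with a median of -0.04, and 0 passed in edgeR or DESeq2. The lowest unadjusted p-values belonged to Abcb6, a porphyrin transporter that carries the human Langereis antigen, and to Smim1, which carries the human Vel antigen (adjusted p = 0.855 for each, edgeR). Abcb6 averaged 20.2 ± 2.07 CPM in the libraries labelled Hmga2 and 28.9 ± 2.56 CPM in the vector libraries (SD, n = 3 each). Smim1 averaged 4.98 ± 0.705 CPM in the libraries labelled Hmga2 and 9.91 ± 3.80 CPM in the vector libraries (SD, n = 3 each). Of 47 relatives present in the files (other carbonic anhydrases, claudins, Slc4, Rh, Icam and endopeptidase genes), 24 were tested, 9 of them negative and 15 positive, with a median of 0.07. In edgeR 0 passed and in DESeq2 the claudin gene Cldn15 passed (adjusted p = 0.0233). Cldn15 had 4.13, 3.35 and 2.97 CPM in the libraries labelled Hmga2 and 5.73, 12.5 and 7.96 CPM in the vector libraries. Neighbouring Car3 had 5.48, 8.91 and 7.34 CPM in the libraries labelled Hmga2 and 7.34, 6.27 and 9.42 CPM in the vector libraries. The widely expressed anion exchanger gene Slc4a2 averaged 55.5 ± 3.24 CPM in the libraries labelled Hmga2 and 49.6 ± 3.47 CPM in the vector libraries (SD, n = 3 each).

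Among 16 erythroid regulators, 6 were negative and 10 positive, with a median of 0.08, and 0 passed in edgeR. Klf1, a factor that activates erythroid genes, had 49.8, 49.2 and 34.4 CPM in the libraries labelled Hmga2, against 63.7, 103 and 69.0 CPM in the vector libraries, with no overlap (log2 fold change -0.82, standard error 0.22, adjusted p = 0.855 in edgeR and adjusted p = 0.0348 in DESeq2). Gata1, the central erythroid factor, had 86.9, 105 and 66.7 CPM in the libraries labelled Hmga2 and 80.6, 98.5 and 98.2 CPM in the vector libraries (log2 fold change -0.10, standard error 0.17). Tal1, a partner of Gata1, averaged 208 ± 23.0 CPM in the libraries labelled Hmga2 and 202 ± 26.4 CPM in the vector libraries (SD, n = 3 each). Rhd per Klf1 within a library was 0.185 to 0.230 in the libraries labelled Hmga2 and 0.274 to 0.381 in the vector libraries. Rhd was chosen with this contrast known, so this ratio describes the same contrast and nothing is read from it. Cbfa2t3, a corepressor that sits with Gata1 and Tal1, averaged 170.1 ± 9.71 CPM in the libraries labelled Hmga2 and 135 ± 3.84 CPM in the vector libraries (SD, n = 3 each; adjusted p = 0.855 in edgeR and adjusted p = 0.0314 in DESeq2). For haemoglobin production 7 of 12 genes were negative, with a median of -0.12 that was -0.49, with 12 of 12 negative, without Hmga2 replicate 3. All 12 were also negative with a replicate block (median -0.17) and when Y-linked genes entered the fit as a term (median -0.34), so the globin genes and Alas2 have no settled direction.

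**Figure D4:**
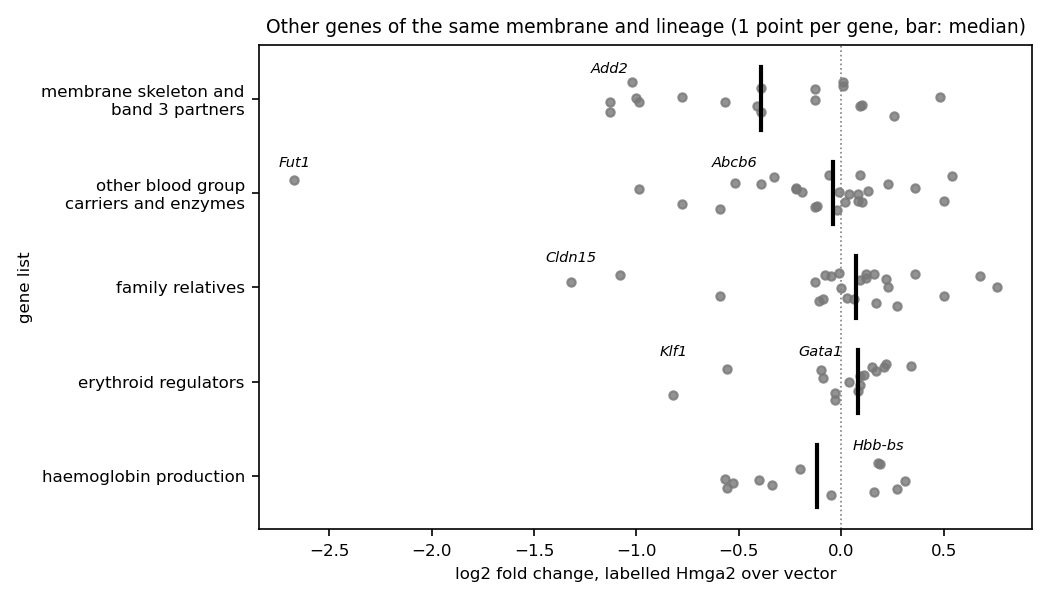
Log2 fold change, labelled Hmga2 over vector (horizontal axis), of each tested gene in 5 lists that leave out the 9 members, with a vertical bar at each list's median. The median of the membrane skeleton list lies at -0.39, and those of the other lists lie between -0.12 and 0.08. The point farthest to the left is Fut1, a fucosyltransferase gene at no more than 1.54 CPM in any library.

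The lists of markers of other cells differed in direction, and differences between the lists were not tested. All 10 granulocyte markers had a negative log2 fold change, their sum was 2983 to 4855 CPM in the libraries labelled Hmga2 and 4385 to 9309 CPM in the vector libraries, and the highest sum was in vector replicate 2, the library with the highest level of most members. B and plasma cell markers summed to 440.5 to 3422 CPM in the libraries labelled Hmga2 and to 537 to 10840 CPM in the vector libraries, with 6 of 8 negative. Their sum was highest in vector replicates 1 and 3, which ranked 2 and 3 of the 6 libraries for Rhd. It was 537 CPM in vector replicate 2, which ranked 1 for Rhd. All 4 glial markers were negative, summing to 111 to 144 CPM in the libraries labelled Hmga2 and to 119 to 376 CPM in the vector libraries, with vector replicates 1 and 2 highest. Of 7 megakaryocyte markers 0 were negative, with sums of 628 to 877 CPM in the libraries labelled Hmga2 and 512 to 937 CPM in the vector libraries. Of 4 stromal markers 1 was negative, with sums of 6.16 to 8.49 CPM in the libraries labelled Hmga2 and 7.45 to 14.8 CPM in the vector libraries. Of 7 erythroid markers, globins included, 4 were negative, with sums of 403 to 1096 CPM in the libraries labelled Hmga2 and 617 to 808 CPM in the vector libraries. Kit and Ly6a together with the stem and progenitor genes Cd34, Flt3, Mecom, Procr and Hlf, of which Cd34 was the highest, summed to 1319 to 1425 CPM in the libraries labelled Hmga2 and to 1098 to 1230 CPM in the vector libraries, and mast cell and basophil markers to 441 to 748 CPM in the libraries labelled Hmga2 and 486 to 591 CPM in the vector libraries. In DESeq2 the granulocyte genes Ms4a3, Ltf and Ngp, the stromal genes Cxcl12 and Sparc, the glial gene Gfap and the erythroid gene Klf1 passed, and in edgeR 0 markers did. No marker of these lists was at 0 in every library. The part of these cells in the differences of the members was not tested. In a fit with a term for libraries rich in Igha, the log2 fold change was -1.5 for Rhd and -1.46 for Cldn13.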

How the data were processed

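The authors deposited 1 table of expected counts by gene symbol for each library; the unit was judged from the values, of which 67.3% to 70.1% were whole. Bowtie2, Partek 3.0 and the build mm10 are named, per the submitters' processing notes. The counter, its annotation and its strand setting were not given in the sources used here. Groups and replicates came from the sample titles, and no replicate pair agreed within counting noise (chi-square over degrees of freedom, 24.8 to 57).

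Expected counts were rounded and fitted with edgeR 4.0.16 in R 4.3.3 (filterByExpr, TMM, quasi-likelihood F test on group alone, Benjamini-Hochberg threshold 0.05). CPM values were scaled by TMM factors. Standard errors came from the F statistic. DESeq2 1.42.0 was the other tool, and both were tested on simulated data. Merged exon lengths and positions came from GENCODE M21 on the same assembly.

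The members, lists, markers and tests were chosen with earlier results of these data known. Named were the 9 members, Hmga2, up to 4 genes per list with the smallest p-values, those called, those of most like course, and Gata1, Klf1, Tal1, Hbb-bs and Hba-a1, except for some genes that are not reported here; Xk, Epb41, Car3, Alas2, Kit, Ly6a and Gm5843 were chosen after their values were seen. Refits left out each library, the low-count filter or the immunoglobulin genes, used DESeq2 or its size factors, or added a replicate block, a term for libraries with Igha over 1000 CPM or one for Y-linked genes.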

Additional observations from a re-analysis of the deposited data

How the results depend on the processing

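The direction of Rhd, Rhag, Kel, Ermap, Slc4a1, Cldn13, Car1 and Car2 was kept in each alternative run, and Icam4 was at -0.04 without Hmga2 replicate 2. The Hmga2 gene was at 0.06 without Hmga2 replicate 1 and at 0.13 with the term for Y-linked genes. With each library left out, the log2 fold change ranged from -1.65 to -1.17 for Rhd, -1.62 to -1.11 for Cldn13 and -1.36 to -0.29 for Slc4a1. Members without overlap numbered 3 to 7, a count that leaving out a library can raise for any gene. List medians then ranged from -0.50 to -0.06 for the membrane skeleton, -0.13 to 0.03 for other blood group genes, -0.04 to 0.14 for the families and -0.49 to -0.01 for haemoglobin production; the cause was not tested. Genes called numbered 0 with each library left out, 1 without the filter on low counts, 1 with a term for Y-linked genes and 71 with DESeq2, which called 1 gene each of the membrane skeleton, family and haemoglobin lists, and 2 regulators; its calls among the members, 2, come from the values that chose them and support nothing. With the term for Y-linked genes the family median was 0.19 and the haemoglobin median -0.34. Same-numbered libraries did not deviate together (correlations of -0.21, -0.50 and -0.26), so the numbers were not taken as pairs; with a replicate block Rhd was at -1.46, Cldn13 at -1.35 and Slc4a1 at -0.81 (-1.21 with the term for Y-linked genes), 0 genes were called, and haemoglobin genes were negative in 12 of 12, against 7 of 12 without the block. Overlap of groups could not be given for fits with added terms. With 3 libraries a group, differences about as large as the SD between libraries are not resolved.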

Other observations

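Gm5843, an annotated pseudogene on chromosome 3 beside the carbonic anhydrase cluster, followed Car1 from library to library. It had 8.17, 4.65 and 3.26 CPM in the libraries labelled Hmga2 and at 9.39, 16.3 and 7.2 CPM in the vector libraries. Its level was 2.18% to 2.45% of that of Car1 in the libraries labelled Hmga2 and 2.24% to 2.34% in the vector libraries. Whether reads were shared between these genes by the counting was not tested.

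Ratios within a library differed in steadiness among the members. Kel per Ermap was 0.223 to 0.259 in the libraries labelled Hmga2 and 0.202 to 0.299 in the vector libraries. Cldn13 per Rhd was 0.874 to 1.17 in the libraries labelled Hmga2 and 0.854 to 1.04 in the vector libraries. Rhd per Car2 did not overlap, at 0.0152 to 0.0237 in the libraries labelled Hmga2 and 0.0406 to 0.0632 in the vector libraries, and these are descriptions of the same contrast.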
